A study of Homo sapiens with 4 samples.

Results

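ASH1L is a histone methyltransferase that places methyl groups on lysine 36 of histone H3, and H3K36me2 is the dimethylated form of that residue. The peaks described here are the 1812 ASH1L peaks and the 634 H3K36me2 peaks listed for MV4;11 cells treated with AS-99, an inhibitor of ASH1L, with the aim of asking where the enzyme and its mark lay relative to genes and to each other. They were taken as every peak on chromosomes 1 to 22 and X in the 2 AS-99 lists, and make up 2446 of the 6948 peaks listed in the series. MV4;11 is an established human leukemia cell line that carries an MLL-AF4 fusion. Its cells received 5 µM AS-99 or, as vehicle, 0.25% DMSO for 4 days, and CUT&RUN for ASH1L or for H3K36me2 was then carried out, giving 4 groups of 1 library each. In CUT&RUN a nuclease is tethered to the antibody on chromatin, and sequencing the short pieces of DNA that it cuts free shows where the target was. All groups share the same cell line, and the vehicle lists, with 3073 ASH1L and 1359 H3K36me2 peaks on the same chromosomes, served only for comparison. Peak lists hold no RNA levels, so the cell line label was not checked against expression markers.

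There is no replicate of any group. The intervals below are therefore 95% intervals over the listed peaks that cover counting error only, and no p-value is given. A difference between the antibodies within AS-99 cells cannot be told apart from a difference between 2 libraries, which held 15381860 (ASH1L) and 13208636 (H3K36me2) filtered fragments. The vehicle libraries held 19635489 and 15584143. The value used for peak height is the pileup, the number of fragments that cover the summit. Pileups are given unscaled unless stated, so modest differences between libraries of unlike depth cannot be read as changes. Most peaks were low and short, with a median pileup of 15 fragments and a median length of 326 bp for ASH1L, and 14 fragments and 322.5 bp for H3K36me2.

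As background, ASH1L belongs to the trithorax group of proteins, which keep genes active, and is held at chromatin through cofactors. H3K36me2 is written by ASH1L and by the NSD enzymes, is commonly found over the first part of active genes and in wide intergenic domains, and is a substrate from which SETD2 makes the trimethylated form along transcribed genes. H3K36 methylation also opposes the polycomb complex PRC2. In leukemias with an MLL fusion, ASH1L is linked to the expression of HOXA genes and their partners.

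The sequence at 7 peaks is printed here because the results below contrast the kinds of place they stand for, which do not cover all peaks of the lists. Each run is 200 bases around a summit on the plus strand of GRCh37, the build that corresponds to the hg19 coordinates of the files. In the first 4 sequences capitals mark the CG dinucleotide. HFM1 (chr1:91852858-91853057) and SIGLEC10 (chr19:51920526-51920725) were places with a peak of both antibodies. PGGT1B (chr5:114598262-114598461) held ASH1L near a gene start without a listed H3K36me2 peak. NCKAP5L (chr12:50218976-50219175) held H3K36me2 inside a gene without a listed ASH1L peak.
HFM1: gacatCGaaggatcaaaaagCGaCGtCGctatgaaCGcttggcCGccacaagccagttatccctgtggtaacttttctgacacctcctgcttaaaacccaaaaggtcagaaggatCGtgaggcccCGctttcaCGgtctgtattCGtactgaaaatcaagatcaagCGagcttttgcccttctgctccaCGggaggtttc
SIGLEC10: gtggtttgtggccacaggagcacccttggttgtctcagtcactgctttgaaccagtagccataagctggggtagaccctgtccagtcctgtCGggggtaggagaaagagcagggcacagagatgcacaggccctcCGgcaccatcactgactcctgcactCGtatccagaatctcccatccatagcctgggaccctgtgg
PGGT1B: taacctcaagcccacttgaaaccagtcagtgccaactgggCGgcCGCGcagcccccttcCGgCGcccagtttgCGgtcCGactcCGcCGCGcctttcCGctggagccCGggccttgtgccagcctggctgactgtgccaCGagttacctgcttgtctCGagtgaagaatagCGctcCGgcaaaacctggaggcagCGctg
NCKAP5L: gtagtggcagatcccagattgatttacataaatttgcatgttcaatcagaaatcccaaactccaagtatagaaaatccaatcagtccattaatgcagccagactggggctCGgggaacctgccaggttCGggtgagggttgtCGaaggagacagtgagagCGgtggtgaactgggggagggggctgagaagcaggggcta

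The window at the PGGT1B start held 17 CG dinucleotides, HFM1 held 12, NCKAP5L held 4 and SIGLEC10 held 3. The next 3 sequences lie outside protein-coding genes, at peaks that both antibodies shared. The first and second are the windows at the 2 H3K36me2 summits with the highest pileup, each beside an assembly gap, that is, a run of at least 50 kb of undetermined bases, on chromosome 7 (chr7:61968938-61969137) and chromosome 1 (chr1:121485077-121485276). The last is the highest shared peak with a tandem of GGAAT (chr16:46403591-46403790). Capitals in these 3 mark GGAAT or its reverse complement ATTCC.
Chromosome 7, beside a gap: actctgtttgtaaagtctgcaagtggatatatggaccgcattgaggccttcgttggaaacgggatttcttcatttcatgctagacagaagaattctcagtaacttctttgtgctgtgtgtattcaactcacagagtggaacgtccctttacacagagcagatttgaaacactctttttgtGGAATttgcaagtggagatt
Chromosome 1, beside a gap: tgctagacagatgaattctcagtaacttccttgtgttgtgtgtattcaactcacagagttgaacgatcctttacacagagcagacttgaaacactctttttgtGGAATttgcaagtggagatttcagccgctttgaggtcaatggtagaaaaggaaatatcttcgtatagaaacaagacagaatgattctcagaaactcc
Chromosome 16, GGAAT repeat: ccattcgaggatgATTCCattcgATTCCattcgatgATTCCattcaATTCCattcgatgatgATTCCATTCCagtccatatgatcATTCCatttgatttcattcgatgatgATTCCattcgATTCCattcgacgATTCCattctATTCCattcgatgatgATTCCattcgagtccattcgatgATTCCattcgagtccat

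The windows on chromosomes 1 and 7 aligned over 123 columns, of which 116 were identical (94.3%), although they lie on different chromosomes. The chromosome 16 window held 13 copies of the marked repeat unit.

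Both lists were far from gene starts in most of their peaks, and ASH1L lay at starts somewhat more often than the mark. A peak was called a promoter peak when its summit was within 1 kb of the start of 1 of the 20098 protein-coding genes annotated on these chromosomes. Promoter peaks made up 262 of the 1812 ASH1L peaks (14.5%, interval 12.9 to 16.2) and 63 of the 634 H3K36me2 peaks (9.94%, 7.72 to 12.5). ASH1L therefore exceeded the mark by 4.52 percentage points (1.52 to 7.22). The determined sequence within 1 kb of a start is 1.30% of the whole, so both shares were above the share of sequence. When both lists were trimmed to 634 peaks by −log10 p, the difference was 2.997 points and its interval included 0 (−0.52 to 6.52), and at −log10 p of at least 10 it was 3.62 points (−1.91 to 8.24).

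The share in gene bodies was near that of the genome for both antibodies. A gene body peak had its summit inside a protein-coding gene and over 1 kb from any start. There were 817 such ASH1L peaks (45.1%) and 289 such H3K36me2 peaks (45.6%), a difference of −0.50 points (−5.01 to 3.98), against 45.1% of determined sequence. The other 733 ASH1L peaks (40.5%) and 282 H3K36me2 peaks (44.5%) were intergenic. On a continuous scale the median distance from summit to nearest start was 31754.5 bp for ASH1L (27680 to 35878) and 38307 bp for H3K36me2 (32987 to 44450), a ratio of 0.83 (0.68 to 1.01). Beyond the first kb the lists ran close together, with 8.28% of ASH1L and 7.89% of H3K36me2 peaks between 1 and 5 kb, and 22.8% against 26.8% over 100 kb away.

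**Figure D1:**
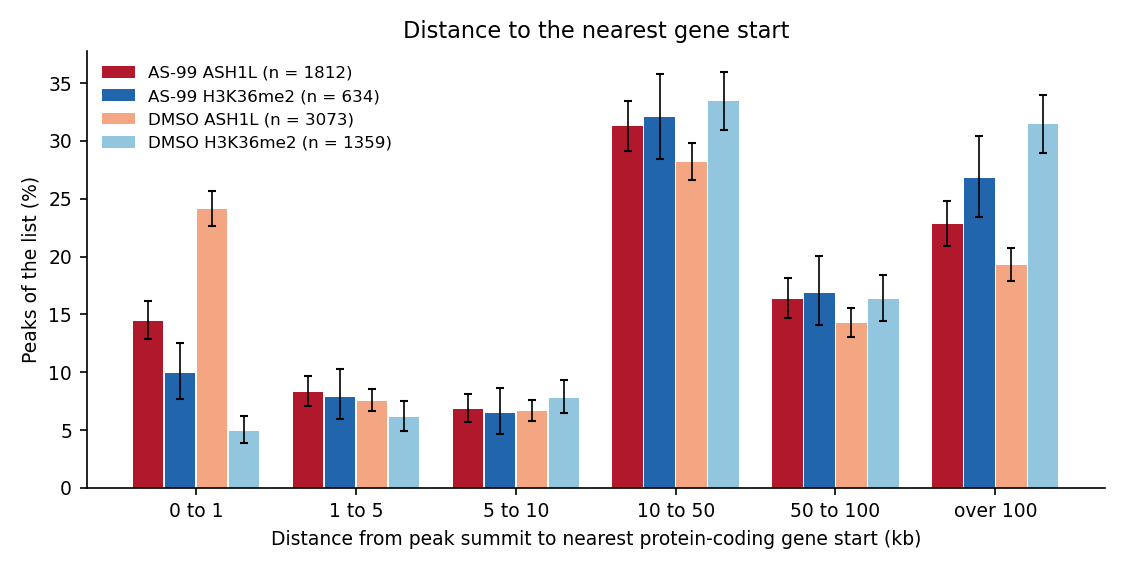
Share of each list (%, y axis) by distance from the summit to the nearest protein-coding gene start (kb, x axis) for the 4 libraries, with bars for 95% Clopper-Pearson intervals over peaks. Within 1 kb of a start the AS-99 lists stand at 14.5% and 9.94%, between the vehicle lists at 24.1% and 4.93%.

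The promoter shares of the antibodies were closer to each other under AS-99 than under vehicle. In the DMSO libraries 24.1% of ASH1L peaks and 4.93% of H3K36me2 peaks were at promoters, a difference of 19.2 points (17.2 to 21.0), so the difference between antibodies was 14.7 points smaller with AS-99 (interval of the change −18.2 to −11.3). The ASH1L share was the lower and the H3K36me2 share the higher of the 2 treatments. With the vehicle lists trimmed to the AS-99 lengths the change was −14.4 points (−18.3 to −10.6). With 1 library per group, an effect of AS-99 and a difference between library preparations cannot be told apart.

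Promoter peaks of both antibodies leaned into the gene. The median ASH1L promoter summit was 178.5 bp downstream of the start (136 to 231), and 180 of 262 were downstream (68.7%, 62.7 to 74.3). The median H3K36me2 promoter summit was 126 bp downstream (6 to 195), with 40 of 63 downstream (63.5%, 50.4 to 75.3). The intervals of the medians overlap. In the vehicle libraries the medians were 133 bp for ASH1L and −2 bp for H3K36me2. The first 250 bp after the start was the fullest 250 bp bin in both AS-99 lists, with 75 ASH1L and 23 H3K36me2 summits.

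**Figure D2:**
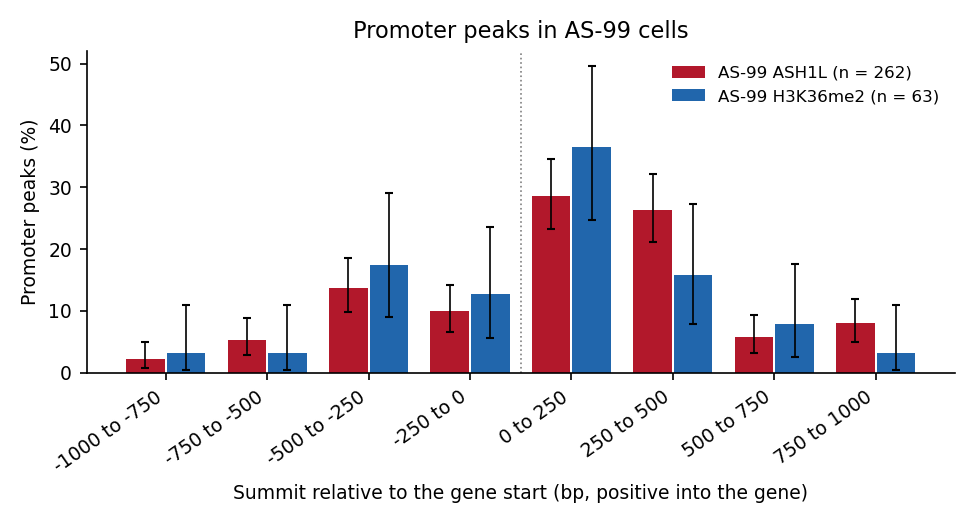
Share of promoter peaks (%, y axis) in bins of 250 bp around the gene start (bp, x axis, positive into the gene) for AS-99 ASH1L (262 peaks) and AS-99 H3K36me2 (63 peaks), with 95% Clopper-Pearson intervals. The bin from 0 to 250 bp holds 28.6% of the ASH1L and 36.5% of the H3K36me2 promoter peaks.

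Along the gene, summits of both antibodies were most frequent in the first part, but for H3K36me2 not once the peaks at the start itself were left out. Each gene was divided into 4 equal parts from its start, so an even spread gives 25% in each. Of 1013 ASH1L summits inside a gene, 411 were in the first part (40.6%, 37.5 to 43.7), and of 333 H3K36me2 summits, 117 (35.1%, 30.0 to 40.5). The difference was 5.44 points, with an interval that included 0 (−0.62 to 11.2). Without peaks within 1 kb of a start, the first part held 29.4% of ASH1L (26.3 to 32.6) and 27.0% of H3K36me2 (21.96 to 32.5), the second part 24.97% and 27.7%, and the last part 23.3% and 20.8%. The H3K36me2 interval for the first part then included 25%. In the vehicle libraries the difference in the first part over all summits in genes was 16.6 points (12.4 to 20.6).

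**Figure D3:**
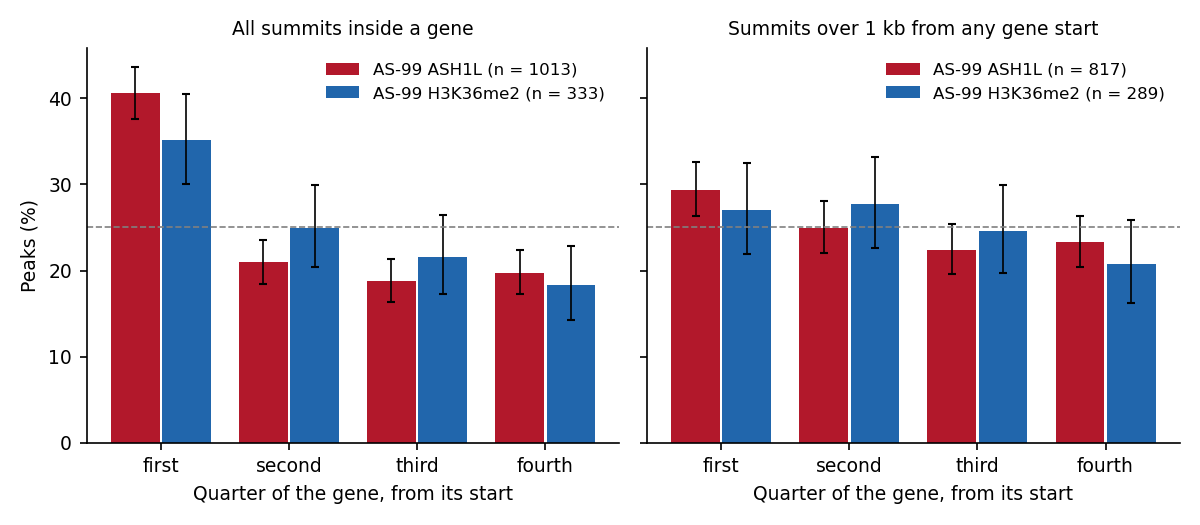
Share of summits (%, y axis) in each of 4 equal parts of the protein-coding gene that holds them (x axis, from the start), for all summits in genes (left) and those over 1 kb from any start (right). Bars are 95% Clopper-Pearson intervals and the dashed line is 25%. The first part stands at 40.6% and 35.1% on the left and at 29.4% and 27.0% on the right.

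The genes with peaks in their bodies were long ones. The median length of a gene that held a gene body peak was 124091 bp for ASH1L and 130225 bp for H3K36me2, against 27256.5 bp for all protein-coding genes. A longer gene offers more sequence in which a summit can fall. Exons held 114 of the 817 ASH1L gene body summits (13.95%, 11.7 to 16.5) and 32 of the 289 H3K36me2 summits (11.1%, 7.70 to 15.3), and the rest were intronic. The 817 ASH1L peaks were spread over 749 genes and the 289 H3K36me2 peaks over 277. Clusters within a gene were small, with at most 4 ASH1L peaks, in ARHGAP26, and at most 3 H3K36me2 peaks, in SIPA1L3, which encodes a protein related to Rap GTPase-activating proteins.

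Some peaks of the 2 lists coincided, and most were far apart. The nearest ASH1L summit was within 200 bp for 110 of the 634 H3K36me2 peaks (17.4%, 14.5 to 20.5), within 1 kb for 136 and within 10 kb for 150 (23.7%, 20.4 to 27.2). Between 1 and 10 kb away it was found for 14 H3K36me2 peaks, and between 10 and 100 kb, a wider range, for 95. The median distance was 188097.5 bp (145783 to 247222). Seen from the longer list, 155 of 1812 ASH1L peaks had an H3K36me2 summit within 10 kb (8.55%, 7.31 to 9.94), and the median distance was 1024962 bp. In the vehicle libraries, whose lists were longer, the shares within 10 kb were 23.3% of H3K36me2 and 10.8% of ASH1L peaks. Within a list, 4.03% of ASH1L peaks and 4.57% of H3K36me2 peaks had another peak of the same antibody within 10 kb.

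**Figure D4:**
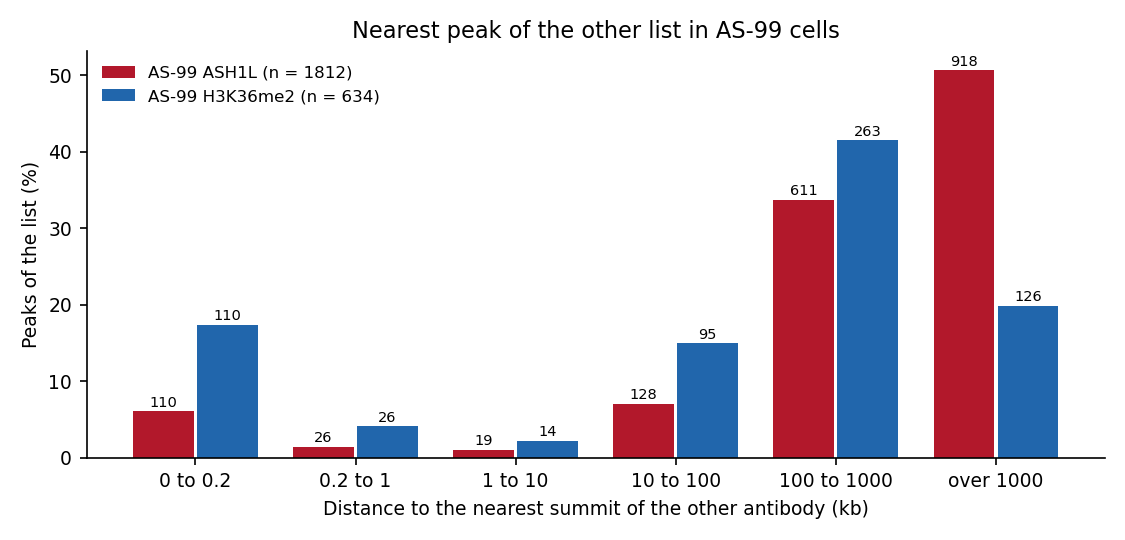
Share of AS-99 ASH1L peaks (1812) and AS-99 H3K36me2 peaks (634) (%, y axis) by distance to the nearest summit of the other antibody (kb, x axis), with the number of peaks above each bar. The bars fall from 110 peaks within 0.2 kb to 19 and 14 peaks between 1 and 10 kb. They are higher beyond, where each bin spans a wider range of distance, so bar heights are not densities.

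Neighbours were of the same kind of place, which their closeness largely fixes. Of the 150 H3K36me2 peaks with an ASH1L summit within 10 kb, 136 had it within 1 kb. All 17 promoter H3K36me2 peaks with an ASH1L summit within 10 kb had it at a promoter, all 50 gene body peaks had it in a gene body, and 82 of 83 intergenic peaks had it in intergenic sequence. The share of H3K36me2 peaks with such a neighbour was 27.0% at promoters (16.6 to 39.7), 17.3% in gene bodies (13.1 to 22.2) and 29.4% in intergenic sequence (24.2 to 35.1). The intergenic and gene body intervals do not overlap, but without peaks within 100 kb of a gap the intergenic share was 21.0% (16.0 to 26.7) and the gene body share 17.2% (13.0 to 22.1), and these do. For ASH1L the shares were 6.49%, 6.37% and 11.7%, and 5.77%, 6.30% and 7.63% away from gaps.

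Nearness went with assembly gaps and with peak height. Of the 45 H3K36me2 peaks within 100 kb of a gap, 35 had an ASH1L summit within 10 kb (77.8%), against 115 of the other 589 (19.5%, 16.4 to 22.96). For ASH1L it was 37 of 60 (61.7%) against 118 of 1752 (6.74%). Among H3K36me2 peaks the share rose from 9.35% at pileups of 9 to 12 to 55.4% at pileups of 19 to 2722, and among ASH1L peaks from 2.85% to 24.1% at pileups of 19 to 3316. Of the H3K36me2 peaks, 47 were overlapped by a peak in each of the other lists of the series, which by definition places AS-99 ASH1L there. Without regions in all 4 lists the share of H3K36me2 peaks with an ASH1L neighbour was 17.4%, and that of ASH1L peaks 5.84%. What the gaps and the repeats beside them contribute to these shares was not tested.

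Where the peaks overlapped, their summits were close, which picking by overlap largely fixes. Their heights per filtered fragment were alike in the median, but not in every pair. The lists formed 130 pairs of 1 peak each, which is 20.5% of the H3K36me2 list and 7.17% of the ASH1L list. The median distance between paired summits was 68 bp (48 to 100), and 77 pairs were within 100 bp. Per filtered fragment, the log2 ratio of ASH1L to H3K36me2 pileup had a median of 0.01 (−0.09 to 0.09) and ran from −0.90 to 0.95, with ASH1L higher in 66 pairs and H3K36me2 in 64. The logarithms of the 2 pileups had a Pearson correlation of 0.97 over the 130 pairs and 0.77 over the 98 pairs over 100 kb from a gap. These points share libraries, depth and base composition, and the value is a description only. The 32 pairs near gaps had a median summit distance of 10 bp, and 27 of them were in all 4 lists, whereas the 98 others had a median of 97 bp, with 20 in all 4 lists. At the chromosome 7 and chromosome 1 windows printed above, pileups in the AS-99 libraries were 3316 and 2876 for ASH1L and 2722 and 2589 for H3K36me2. In the vehicle libraries they were 3598 and 3154 for ASH1L and 2466 and 2909 for H3K36me2, so both places were high in every library. At the chromosome 16 window the pileups were 449 and 360 with AS-99 and 450 and 201 in vehicle, for ASH1L and H3K36me2.

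**Figure D5:**
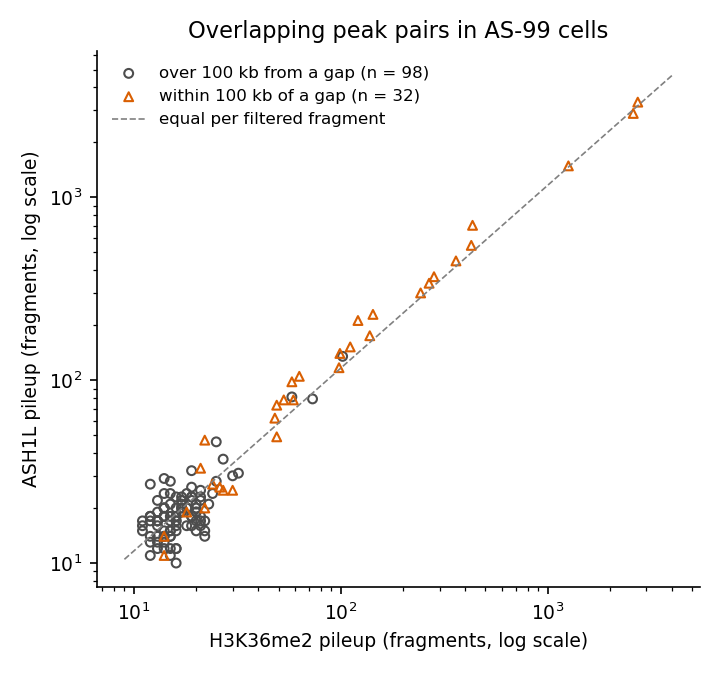
Pileup of the ASH1L peak (fragments, log scale, y axis) against that of the overlapping H3K36me2 peak (fragments, log scale, x axis) for 130 pairs in AS-99 cells, with triangles for the 32 pairs within 100 kb of an assembly gap. The dashed line marks equal height per filtered fragment, and the 98 pairs away from gaps (circles) lie mostly at the low end.

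Where a gene held both and the summits were over 1 kb apart, ASH1L was more often the downstream one. Of 57 H3K36me2 summits whose nearest ASH1L summit was in the same gene and at most 1 kb away, 33 were downstream of it (57.9%, 44.1 to 70.9). Of 47 such summits over 1 kb away, 16 were downstream (34.0%, 20.9 to 49.3). The first of these intervals includes 50% and the second lies just under it. Summits in the same gene were counted separately and the larger distances had no upper limit, so the second interval may be too narrow. A gene with ASH1L at its start held H3K36me2 somewhat more often than other genes. A summit at the start itself counts as inside the gene, so the coinciding promoter peaks described above enter this share. How many of the genes rest on them is not given, so the share does not describe the mark farther along the gene. H3K36me2 had a summit inside 15 of the 298 protein-coding genes with an ASH1L summit within 1 kb of the start (5.03%, 2.84 to 8.17) and inside 329 of the other 19800 (1.66%), a difference of 3.37 points (1.403 to 6.48). The median lengths of these genes were 29684.5 and 27212.5 bp. In vehicle the shares were 5.14% and 3.10%. In all, 1034 genes held an ASH1L summit, 344 an H3K36me2 summit and 101 both.

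At the 10 highest places with overlapping peaks at protein-coding genes and away from gaps, 3 were at a start and 7 in a gene body. SIGLEC10, which encodes an inhibitory sialic acid receptor of immune cells (ENSG00000142512, chr19:51913274-51921057, minus strand), had its H3K36me2 summit in an exon 432 bp into the gene and its ASH1L summit 69 bp away. The unscaled pileups there were 30 for AS-99 ASH1L, 30 for AS-99 H3K36me2, 31 for DMSO ASH1L and 25 for DMSO H3K36me2. A peak was thus listed in all 4 libraries. DOK2, an adaptor of tyrosine kinase signalling in blood cells, had summits 8 bp apart upstream of its start, with pileups of 23 (ASH1L) and 21 (H3K36me2) in AS-99 cells and no listed peak in vehicle. MANBA, the lysosomal beta-mannosidase, had its H3K36me2 summit 282 bp downstream of the start and ASH1L 20 bp from it, at 19 and 23 fragments, with ASH1L also listed in vehicle at 34.

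HFM1, a helicase of meiotic recombination (ENSG00000162669, chr1:91726323-91870413, minus strand), was the highest of the 10, in an intron, with summits 6 bp apart. Its pileups were 135 and 102 with AS-99 and 235 and 47 in vehicle, for ASH1L and H3K36me2, so the order of the antibodies was the same in both treatments. The 31 bases at that summit occur exactly at 2 other places of the genome, which limits how surely its fragments were placed. Copies that differ by a base or are missing from the assembly were not counted, so 2 is a lower limit. The intronic places in PIK3CB, the catalytic beta subunit of phosphoinositide 3-kinase, and BAALC, a gene expressed in early blood progenitors and in acute leukemias, had pileups of 19 and 20 and of 23 and 19 for ASH1L and H3K36me2. At PIK3CB vehicle H3K36me2 was listed at 19 and vehicle ASH1L was not listed, and at BAALC neither was. EPS15L1, an endocytic adaptor, was listed in all 4 libraries at pileups between 19 and 32. At CRYBG1, where the summits lay in an exon, and at TG, the thyroglobulin gene, whose intron also holds the blood cell adaptor gene SLA, both antibodies were listed in AS-99 cells and neither in vehicle. JRK, the last of the 10, had 20 fragments for each antibody in AS-99 cells and 27 for ASH1L in vehicle. Over the 10 places, a vehicle ASH1L peak was listed at 5, a vehicle H3K36me2 peak at 4 and neither at 4. The places were picked by height with AS-99. The share of all AS-99 peaks without a vehicle peak is not given, so these counts do not measure a gain.

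ASH1L without a listed H3K36me2 summit within 10 kb was seen at 245 of the 260 promoter peaks away from gaps. The share with such a summit, 5.77%, was near the 6.74% over all ASH1L peaks away from gaps. Lacking the mark was thus not particular to promoters. The 8 highest of the 245 had pileups of 24 to 30. A weak or broad signal that was not called as a peak would not be listed, so the mark may still be present there. The highest was at ASH2L, a core subunit of the MLL family methyltransferase complexes (ENSG00000129691, chr8:37963011-38001594, plus strand), at −451 bp from the start with 30 fragments, and the vehicle list had no peak there. A further ASH1L peak lay in its gene body at 26 fragments, which was also listed in vehicle at 27. LILRA5, an activating leukocyte receptor, had 29 fragments against 16 in vehicle. PGGT1B, a subunit of an enzyme that attaches lipid groups to proteins (ENSG00000164219, chr5:114539709-114598574, minus strand), had 25 against 29. These pileups are unscaled, and the vehicle ASH1L library held more fragments. PGGT1B was in an intron 213 bp from the start, at the CG-rich window printed above. ZNF460, a zinc finger gene, and the unnamed gene ENSG00000271793, whose start region also carries the small nucleolar RNA host gene SNHG5, had 27 and 26 fragments and no vehicle peak. C20orf203 and BLVRB, which encodes biliverdin reductase B, had 24 each with AS-99 and 22 each in vehicle. None of the 8 had a vehicle H3K36me2 peak, and they were picked for lacking one with AS-99.

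H3K36me2 without a listed ASH1L summit within 10 kb was seen at 236 of the 285 gene body peaks away from gaps. The share with such a summit, 17.2%, was near the 19.5% over all H3K36me2 peaks away from gaps. Lacking ASH1L was thus not particular to gene bodies. The 8 highest of the 236 had pileups of 21 to 23, all in introns. As above, signal that was not called as a peak would not be listed. NCKAP5L (ENSG00000167566, chr12:50184929-50222533, minus strand) had 23 fragments at 3458 bp from its start, at 9.20% of its length, and the nearest ASH1L summit was 407924 bp away. SIPA1L3 also had 23, at 42.2% of its length. ELMO1, which promotes Rac activation in cell engulfment, and DIPK2A had 21 and 22 at 9.59% and 7.90% of their lengths. SUN3, a nuclear envelope protein, had 21 at 88.2%, and SPINT2, a protease inhibitor, had 22 at 40.9%. ANKRD33B had 21, and the place in ENSG00000141979, where the mediator subunit gene MED26 is also annotated, had 22. In vehicle, 7 of these 8 places had no peak of either antibody, and SUN3 had an ASH1L peak at 18 fragments. The 8 were picked by height with AS-99 and for lacking ASH1L there. The share over all AS-99 peaks is not given, so this count does not measure a gain.

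As over all protein-coding genes, few genes in the lists of MLL fusion targets and of H3K36 methylation held either antibody. Over all protein-coding genes, 6.58% had an ASH1L summit in the gene or within 5 kb of it, 2.21% an H3K36me2 summit and 0.597% both. Of 23 MLL fusion targets and genes followed by the study, 1 had ASH1L and 1 had H3K36me2, which is close to those shares. The median gene lengths of this list and of the H3K36 methylation list were 97319 and 99234 bp, against 27256.5 bp for all protein-coding genes. CDK6, a cell cycle kinase, had an intronic ASH1L peak of 19 fragments, and FLT3, a receptor tyrosine kinase, had an intronic H3K36me2 peak of 12 fragments, where ASH1L was listed in vehicle at 21. The HOXA genes and MEIS1 in that list held neither. Of 24 genes for writers, erasers and readers of H3K36 methylation, 2 had ASH1L and none had H3K36me2. These were SETMAR, a SET domain protein fused to a transposase, at 370 bp from the start, and KDM2A, a demethylase of H3K36me2, inside the gene, with 12 and 13 fragments. ASH1L itself held neither.

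Of 22 trithorax and MLL complex genes (median length 87863 bp), 3 had ASH1L (13.6%, against 6.58% of all genes). Both antibodies were at 1 of them (against 0.597% of all genes). The 3 with ASH1L were ASH2L, KMT2C, an H3K4 methyltransferase, and ELL, an elongation factor and MLL fusion partner. In ELL the ASH1L summit (13 fragments) and the H3K36me2 summit (16 fragments) were both intronic and 45407 bp apart, with the mark nearer to the start. Of 22 polycomb genes, PCGF5 and PCGF6, subunits of variant PRC1 complexes, had ASH1L, and EZH1, a catalytic subunit of PRC2, had H3K36me2 at 221 bp from its start. That place was listed for ASH1L in vehicle at 14 fragments and for H3K36me2 in AS-99 cells at 12. No polycomb gene had both, which only 0.597% of all genes did. The polycomb shares were 9.09% for ASH1L and 4.55% for H3K36me2, against 6.58% and 2.21% of all genes.

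The myeloid differentiation list had the highest shares of the 6 lists. ASH1L was at 5 of 22 genes (22.7%, against 6.58% of all genes) and H3K36me2 at 4 (18.2%, against 2.21%). Both were at 3 (against 0.597% of all genes), namely CSF1R, RUNX1 and ELANE. The lists were chosen with earlier results of these data known, so this ranking is not an independent result. CSF1R, the receptor for macrophage colony-stimulating factor, had an ASH1L summit of 13 fragments and an H3K36me2 summit of 12 fragments 16414 bp apart. RUNX1, a transcription factor of blood formation, had 3 ASH1L and 2 H3K36me2 peaks of 12 to 17 fragments in a gene model 1216868 bp long, the closest of them 13295 bp apart. The peaks counted for ELANE, neutrophil elastase, lay beyond its end, at the start of CFD, complement factor D, where the summits were 45 bp apart with 14 (ASH1L) and 15 (H3K36me2) fragments. Integrins had ASH1L alone, at 17 fragments inside ITGAM, which encodes CD11B, and at 21 fragments at −275 bp from the start of ITGAX, and neither was listed in vehicle. CSF2RA had H3K36me2 alone at 9 fragments, the lowest pileup in either list. Among 77 ribosomal protein genes, 5 had ASH1L (6.49%) and 1 had H3K36me2 (1.30%), which is close to the shares over all genes.

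The bases under the peaks were described in windows that reached 150 bases to each side of the summit. At promoters, the median GC share was 61.5% for ASH1L and 60.1% for H3K36me2, and the median over windows at all gene starts was 62.8%. A CpG ratio, observed over expected, of at least 0.6 was found in 67.6% of ASH1L and 52.4% of H3K36me2 promoter windows, against 60.9% of all starts. Away from promoters it was much rarer, at 7.59% and 4.84% in gene bodies. The GC box (GGGCGG, either strand) was in 48.9% of ASH1L and 49.2% of H3K36me2 promoter windows against 54.2% of all starts, and the ETS core (CCGGAAG, either strand) in 10.3% and 7.94% against 12.1%. Both motifs contain a CG, so their shares are tied to the CpG content. A direct tandem of GGAAT, either strand, was in 9 ASH1L and 9 H3K36me2 windows, all intergenic. Of these, 7 and 8 were in peaks that overlapped the other antibody.

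Exact copies of the summit sequence elsewhere were found for a minority of both lists. The central 31 bases occurred exactly elsewhere in the genome for 129 of 1812 ASH1L peaks (7.12%, 5.98 to 8.40) and 59 of 634 H3K36me2 peaks (9.31%, 7.16 to 11.8). This count leaves out diverged repeats: the 3 windows printed from beside gaps and from the GGAAT repeat had 0 exact copies. For peaks overlapped by the other antibody the shares were 13.8% and 16.9%. Over 100 kb from gaps, overlapped peaks stood at 3.06% (ASH1L) and 8.16% (H3K36me2), and peaks without overlap at 6.17% and 6.11%, with overlapping intervals in each list.

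The chromosomes were used unevenly in the same way by both lists. Chromosome 19, which is rich in genes, held 7.40% of ASH1L and 7.73% of H3K36me2 peaks against 1.97% of determined sequence. Chromosome 8 held 9.60% and 9.31% against 5.04%, and chromosome X 0.44% and 1.26% against 5.33%. The copy number of each chromosome in the line was not measured here.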

How the data were processed

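CUT&RUN was carried out by the authors in MV4;11 cells, with 1 library per treatment and antibody, and the groups come from the labels. Reads were aligned by the authors to hg19 with Bowtie2. Per the file headers, peaks were called separately in each library with MACS 2.1.0.20150731 on paired-end fragments at a q-value threshold of 0.01, with at most 2 duplicates and without a control library. The study's methods name another MACS version, a size selection, a spike-in and a slightly higher dose; the headers and labels were followed. Whether a library pools several cultures could not be settled. The deposited signal is the pileup at the summit, not scaled to depth. The deposited −log10 p-value and −log10 q-value compare it with the local background, and the deposited fold column gives pileup over that background. Per the file headers, the other columns used hold positions in bp.

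Summits were compared with protein-coding genes of GENCODE release 44 on GRCh37 (1 start per gene) by Python 3.11.15, pandas 2.3.3 and pysam 0.24.0. Shares have Clopper-Pearson intervals, differences Newcombe intervals and medians order-statistic intervals, at 95%, from SciPy 1.17.1; the interval of the ratio of medians combines both on the log scale. The distance and overlap functions were tested on simulated lists, where 100 of 100 planted pairs were found. Peaks outside chromosomes 1 to 22 and X were left out. Named places were, over 100 kb from gaps, the 10 highest overlapping places at genes by the smaller pileup, the 8 highest promoter ASH1L and the 8 highest gene body H3K36me2 peaks without the other antibody within 10 kb, and list members with a peak within 5 kb. A single one of these places is not reported here. Members and gene lists were chosen with earlier results of these data known. Alternatives changed the threshold, list length, starts, position of a peak and distance limit.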

Additional observations from a re-analysis of the deposited data

Results flagged for a closer look

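Outside the comparisons, the AS-99 H3K36me2 list held 18 peaks on sequences other than chromosomes 1 to 22 and X, against 16 in the vehicle H3K36me2 list, and the ASH1L lists held 17 with AS-99 and 19 in vehicle. These were singled out because they lie in data that no comparison used and exceed the vehicle count, by 2 peaks.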

How the results depend on the processing

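No paired analysis was possible because there is 1 library in every group. Of 58 alternative values, 43 stayed within the interval of the value reported, 15 moved outside it and 0 changed the sign of a difference whose interval excluded no difference; 15 of the 58 were chosen after seeing the data.

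At −log10 p of at least 10 (529 ASH1L and 204 H3K36me2 peaks), the gene body difference was 5.20 points (−2.76 to 12.8), the share of H3K36me2 peaks with an ASH1L neighbour within 10 kb was 30.9% and that of ASH1L peaks 12.3%. With both lists at 634 peaks these shares were 16.9% and 16.6%, by construction of the shorter list. Without peaks near gaps they were 19.5% and 6.74%, and without regions in all 4 lists 17.4% and 5.84%. A reciprocal overlap of 50% gave 16.9% and 5.91%, and summits within 100 kb gave 38.6% and 15.6%. For ASH1L peaks alone, an overlap of 1 bp gave 7.17%, and leaving out summits whose central 31 bases occur elsewhere gave 7.19%. For the changes by threshold, the cause was not tested.

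The promoter difference ran from 2.997 to 6.36 points, the ratio of medians from 0.77 to 0.96 and the difference in the first part of the gene from 4.38 to 7.80 points. With starts of every gene of any type, the ratio of medians was 0.77 with an interval below 1 (0.64 to 0.97). Most peaks of both lists rest on fewer than 20 fragments, and how the lists would change with depth was not tested.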
